A study of Mus musculus with 28 samples.

Results

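Among the 9 hippocampal CA1 libraries of vorinostat-treated transgenic mice, 3 carried a mitochondrial share above 5% of all counts and 6 carried a share below it, out of 28 libraries in the whole study. The share was computed in each library as the summed counts of the genes whose symbol starts with mt-, which are those encoded in mitochondrial DNA, divided by all counts. It was 6.39% in vorinostat 6, 7.48% in vorinostat 7 and 6.94% in vorinostat 9. In the other 6 vorinostat libraries it ran from 3.16% to 3.87%, with the library nearest to the threshold from below at 3.87% (vorinostat 1) and the nearest from above at 6.39% (vorinostat 6). Because the share itself divided these libraries, everything measured between the 3 and the 6 is given as a description with no test.

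RNA with polyA tails was sequenced from the dissected CA1 field of mice that were 3 months old and had drunk vorinostat or vehicle for 4 weeks from the age of 2 months. The vorinostat group and the transgenic vehicle group (9 libraries) carried CamkdeltaC, a transgene for the cytosolic delta form of the kinase CamkII, and the wildtype vehicle group (10 libraries) came from littermates without it. Vorinostat, also called SAHA, inhibits histone deacetylases and was given in the drinking water to mice of both sexes. As background, this transgene is known from a mouse model of heart failure in which heart muscle makes the kinase, whereas the labels used here do not give its promoter. Vorinostat in wildtype mice was not analysed here. Nothing in the labels ties 1 mouse to 1 library, so the p-values below measure the spread between these libraries, which may be technical.

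Mitochondrial DNA encodes a small set of respiratory chain subunits together with the ribosomal and transfer RNAs that translate them. The remaining subunits of the chain, the mitochondrial ribosome and the import machinery are encoded in the nucleus, so oxidative phosphorylation in CA1 neurons, which have a high energy demand, draws on transcripts from both genomes. Mitochondrial transcripts are made, processed and degraded inside the organelle by nuclear-encoded enzymes. In bulk tissue, fewer cells of a type and less RNA per cell cannot be told apart.

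The labelled tissue was checked against marker genes. The 8 CA1 pyramidal neuron markers tested (such as Wfs1, Fibcd1 and Dkk3) summed to 1536 to 1660 CPM in the 3 libraries and 1900 to 2156 CPM in the 6, where CPM, the usual depth-scaled unit of counts, was computed on the TMM-adjusted library total. The 5 CA3 markers tested summed to 107 to 122 CPM and 110 to 128 CPM, respectively. The 3 libraries held 20319545 to 22636248 counts and the 6 held 21976795 to 27552821. Xist, which coats the inactive X chromosome in females, was at 968 CPM in vorinostat 6, against 0.894 in vorinostat 7 and 0.728 in vorinostat 9, and it was high in 4 of the 6 libraries under 5%, so neither set was of one sex.

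The genes that make up the share are described first. Of 37 mitochondrially encoded genes in the files, 20 passed the filter on low counts and 17 of these were higher in all 3 libraries than in all 6. The 7 tested protein-coding genes were higher by 0.61 to 0.97 on the log2 CPM scale, the 2 ribosomal RNAs by 1.004 to 1.021, and the 11 tested transfer RNAs by 0.53 to 1.04, with 8 of the 11 not overlapping between the sets. These genes made the share, so their direction was fixed by the choice of libraries.

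mt-Nd5, a core subunit of complex I, was at 4109, 5233 and 4305 CPM in vorinostat 6, 7 and 9, and at 2722, 2922 and 3240 CPM (lowest, median and highest) in the 6 libraries under 5%. The sets did not overlap, and the difference was 0.63 on the log2 scale. mt-Cytb, the mitochondrially encoded subunit of complex III, was at 12320, 14530 and 12500 CPM against 6037, 6913 and 7643 CPM, a difference of 0.93. Its 3 values lay well clear of the 6. The most abundant mitochondrial transcript, mt-Co1 of cytochrome c oxidase, was at 14310, 16170 and 17260 CPM against 7935, 9255 and 9643 CPM. mt-Rnr1, the small ribosomal RNA of the mitochondrion, was at 3736, 4604 and 4104 CPM against 1758, 2141 and 2209 CPM, a difference of 1.02, and mt-Tn, a transfer RNA, had the largest difference of the tested genes (1.04) at only 1.51 to 1.69 CPM in the 3 libraries.

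**Figure D1:**
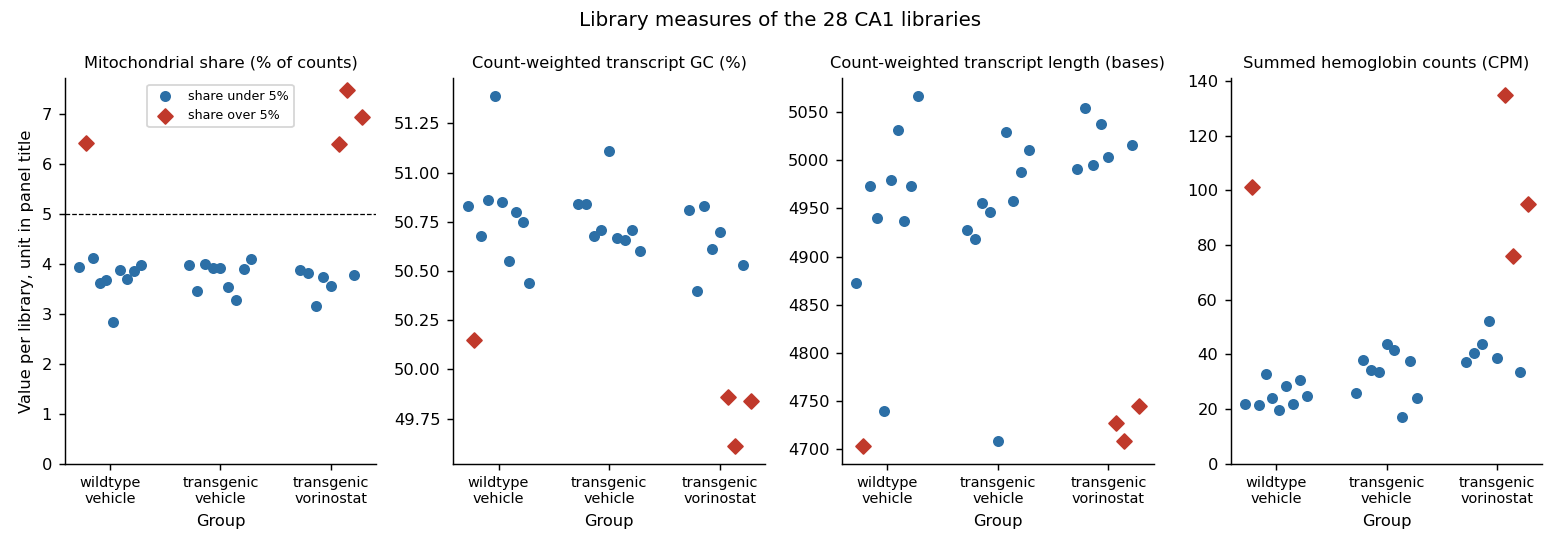
Each point is 1 of the 28 libraries, by group; the panels show the mitochondrial share in percent, the mean GC content in percent and mean length in bases of the transcripts counted (nuclear genes, weighted by counts), and summed hemoglobin counts in CPM on unadjusted library totals. Red diamonds mark the libraries over 5% (vorinostat 6, 7 and 9 and wildtype vehicle 2), which had the lowest GC content (49.61 to 50.15%) and the highest hemoglobin (75.9 to 135.1 CPM) of all 28.

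Beyond the mitochondrial genes, the 3 libraries differed from the 6 across a large part of the transcriptome. A gene is called higher here when all 3 libraries over 5% lay above all 6 under 5%, and lower when all 3 lay below. Of 17009 genes tested, 3390 were higher (19.9%) and 3490 lower (20.5%), so 40.4% of genes did not overlap between the sets. The counts of gene groups below are to be read against these shares, unless given after a correction for transcript GC and length. For corrected counts the shares were 10.7% higher and 10.8% lower, over all nuclear genes with a transcript. Among nuclear genes alone, 3373 of 16989 were higher (19.9%) and 3490 lower (20.5%). Most differences were small: 79% of the nuclear genes that did not overlap differed by less than 1.5-fold. At 1.5-fold or more, 406 nuclear genes were higher and 1036 lower, and at 2-fold or more 21 were higher and 104 lower, so the larger differences were mostly downward. The balance depended on the scaling, with 4915 higher and 2453 lower when each library was scaled to its nuclear counts alone, a scaling that shifted the median of all genes by 0.12 on the log2 scale.

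Genes were ranked among nuclear genes that did not overlap and averaged at least 5 CPM, leaving out Gm, Rik and -ps symbols. By this rule the largest upward differences were in hemoglobin genes. Hba-a1, an alpha-globin gene, was at 35.3, 17.6 and 22.2 CPM in vorinostat 6, 7 and 9, against 8.48, 9.16 and 13.4 CPM (lowest, median, highest) in the 6 libraries. Hbb-bs, a beta-globin gene, was at 77.2, 46.7 and 58.0 CPM against 20.8, 25.3 and 32.7 CPM. The log2 differences were 1.27 for Hba-a1, 1.22 for Hbb-bs and 1.18 for Hbb-bt, and vorinostat 6 was the highest of the 3 for each. Without vorinostat 6, the difference of Hba-a1 was 0.99. These genes have near-identical copies, so the split of counts among them is uncertain, but the sum of the 4 hemoglobin genes did not overlap either, at 75.9 to 135.1 against 33.4 to 52.1 CPM on library totals without the TMM adjustment. Alas2, an erythroid marker that starts heme production, was at 6.35, 3.15 and 5.27 CPM against 2.90 to 4.18 CPM, and the sets overlapped.

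Ribosomal protein genes and genes of immune cells were among the others with large upward differences. Rpl35a, Rpl38 and Rpl26 encode proteins of the large ribosomal subunit. Rpl38 was at 38.0, 35.8 and 35.1 CPM against 16.9, 19.1 and 21.3 CPM, and Rpl26 at 47.9, 48.8 and 48.0 CPM against 25.3, 26.7 and 28.7 CPM. For both genes the 3 values were tightly grouped and far from the 6. Rpl35a had the largest difference of these (1.06), with 34.5, 38.0 and 38.8 CPM against 13.7, 17.97 and 23.4 CPM. Cd53, a tetraspanin of leukocytes and microglia, was at 9.78, 10.8 and 10.97 CPM against 4.56, 5.71 and 6.31 CPM. Ly86, a secreted partner of a leukocyte receptor, was higher by 0.82, Immp1l, a subunit of the inner membrane peptidase of mitochondria, by 0.85, Sarnp, an RNA-binding protein of messenger RNA export, by 0.88, and Smim8, a small membrane protein, by 0.84.

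By the same rule, the largest downward differences were in genes of adhesion, matrix, signalling and synaptic proteins. Dlk1, a non-canonical Notch ligand, was at 5.97, 5.69 and 7.63 CPM in vorinostat 6, 7 and 9, against 13.4, 24.7 and 36.8 CPM, a difference of -1.82. The transgenic vehicle libraries, all under 5%, ran from 3.15 to 29.2 CPM for Dlk1, a range that held all 3 values. Celsr2, an adhesion receptor of the planar polarity pathway, was at 157, 160 and 186 CPM against 408, 431 and 446 CPM, and its relative Celsr3 at 112, 91.3 and 108 CPM against 213, 237 and 251 CPM. For both the 3 libraries held well under the lowest of the 6. Lrp1, a large endocytic receptor, was at 322, 292 and 383 CPM against 759, 787 and 839 CPM, and Bsn, the active zone scaffold Bassoon, at 212, 231 and 257 CPM against 498, 553 and 586 CPM. Cacna1h, a T-type calcium channel, and Lmtk3, a neuronal kinase, both had a difference of -1.23. The extracellular proteins Lamc3, Slit3, Vwf and Tnxb had differences of -1.36, -1.32, -1.21 and -1.18, and Baiap3, which acts in vesicle release, one of -1.25. Baiap3 was at 6.87, 3.67 and 6.43 CPM in vorinostat 6, 7 and 9, and transgenic vehicle ran from 3.83 to 16.2 CPM. For the other genes of this paragraph the 3 libraries lay below the transgenic vehicle range.

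**Figure D2:**
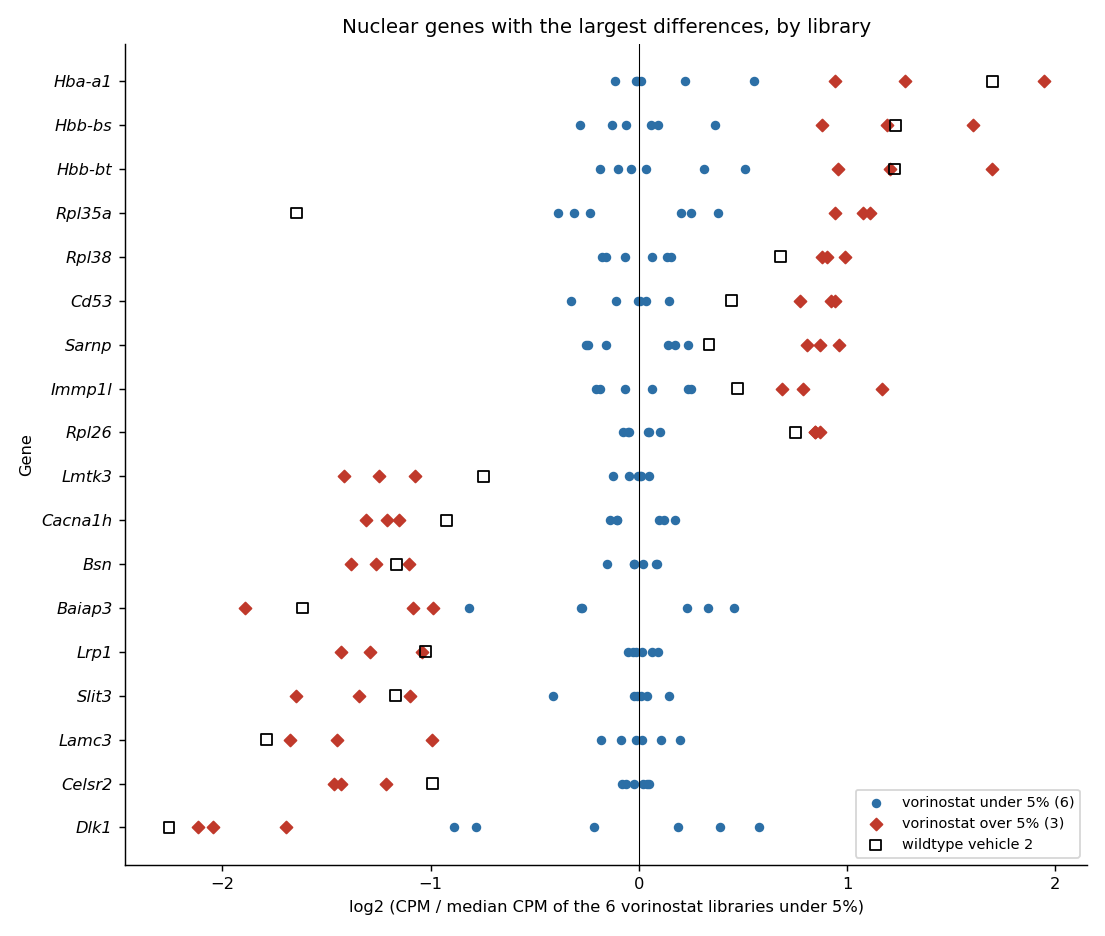
Points show each gene's CPM in single libraries relative to the median of the 6 vorinostat libraries under 5% (log2 scale). The genes are the 9 nuclear genes with the largest difference in each direction by the naming rule. Red diamonds are vorinostat 6, 7 and 9, blue points the 6 under 5%, and open squares wildtype vehicle 2. Red and blue points do not overlap in any row, since that chose the genes, and the open square lies on the side of the red diamonds for each gene except Rpl35a.

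The genes with the largest differences also differed in transcript length, and some of them in base composition. To show the extremes of composition, given here are the first 120 coding bases of the 2 higher genes of lowest transcript GC content and the 2 lower genes of highest GC content among the 24, from the longest basic transcript in GENCODE M21 on GRCm38, with every G and C in capitals. Immp1l (chr2:105904638-105965558, plus strand) and Cd53 (chr3:106759921-106790149, minus strand) were higher. Lmtk3 (chr7:45783738-45804144, plus strand) and Tnxb (chr17:34670535-34719815, plus strand) were lower.
Immp1l: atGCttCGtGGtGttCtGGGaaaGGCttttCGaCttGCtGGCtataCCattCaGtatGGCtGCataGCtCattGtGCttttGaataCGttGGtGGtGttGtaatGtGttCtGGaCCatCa
Cd53: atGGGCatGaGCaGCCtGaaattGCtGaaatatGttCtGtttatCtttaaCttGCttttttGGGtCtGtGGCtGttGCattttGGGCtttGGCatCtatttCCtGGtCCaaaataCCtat
Lmtk3: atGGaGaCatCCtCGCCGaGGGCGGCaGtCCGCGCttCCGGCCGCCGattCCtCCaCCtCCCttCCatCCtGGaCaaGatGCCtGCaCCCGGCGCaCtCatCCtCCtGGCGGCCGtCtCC
Tnxb: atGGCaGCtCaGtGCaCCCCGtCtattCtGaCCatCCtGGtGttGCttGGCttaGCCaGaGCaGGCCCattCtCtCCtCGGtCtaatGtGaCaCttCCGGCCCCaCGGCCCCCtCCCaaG
The stretches of Immp1l and Cd53 are 45% and 40% G and C, and those of Lmtk3 and Tnxb are 68.3% and 60.0%. Over whole transcripts the GC contents are 39.2% and 40.0% against 66.7% and 60.7%, and the lengths 955 and 1742 bases against 5051 and 12209 bases. These 4 were picked for their GC content, and the named genes overlapped in it: the higher genes Rpl38 (59.1%), Hba-a1 (57.2%) and Rpl26 (56.5%) have more GC than the lower gene Dlk1 (53.6%).

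Composition and length were then compared across the genes tested. The 3368 higher nuclear genes with an annotated transcript had a median GC content of 45.1% and a median length of 2402 bases, the 3485 lower genes 54.9% and 4239 bases, and all 16941 such genes 49.9% and 2984 bases. Coding sequences had a median of 960 bases in higher and 2172 bases in lower genes, and exons numbered 7 and 13. Across genes, which are not independent replicates, the difference between the 3 and the 6 libraries had a Spearman rho of -0.55 with transcript GC content and -0.32 with transcript length. Genes were then divided by each property into 5 bins of equal size. In the bin of lowest GC and shortest transcripts the median difference was 0.41 and 36.3% of genes were higher, and in the bin of highest GC and longest transcripts it was -0.69, with 325 of 374 genes (86.9%) lower and 0 higher.

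**Figure D3:**
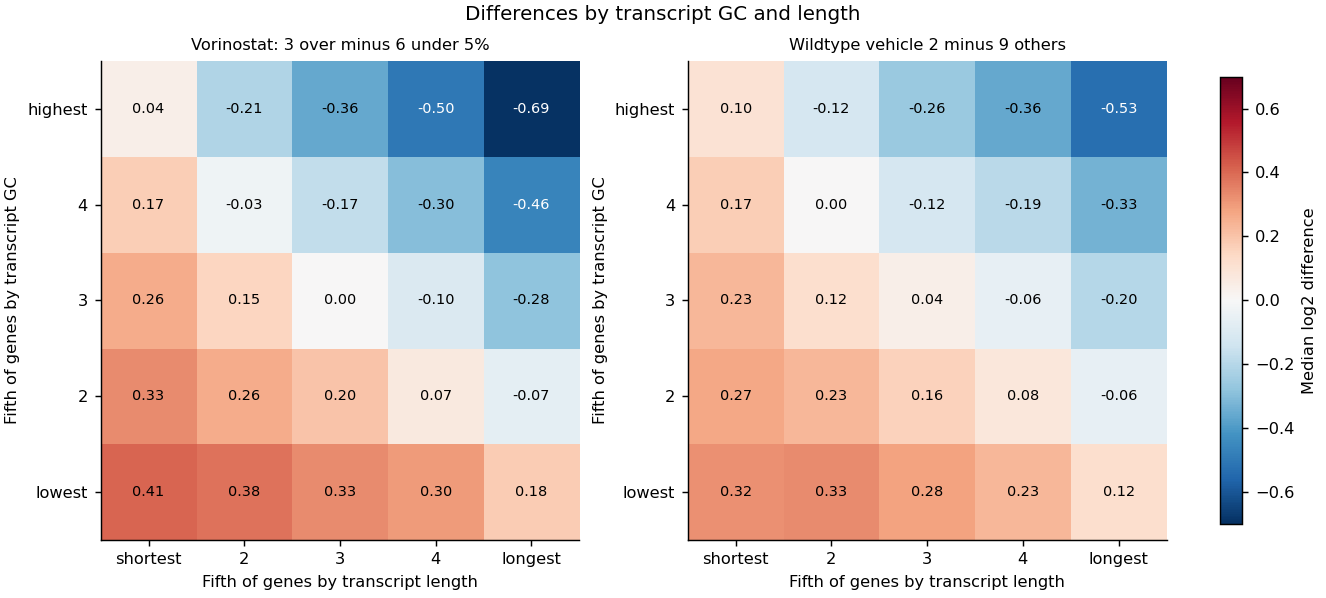
Cells give the median log2 difference of nuclear genes in bins of transcript length (x axis) and GC content (y axis), for vorinostat libraries over minus under 5% (left) and for wildtype vehicle 2 minus the other 9 wildtype libraries (right). Both grids run from red at short, GC-poor transcripts (0.41 and 0.32) to blue at long, GC-rich transcripts (-0.69 and -0.53).

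The library as a whole showed it too. Weighted by counts, the nuclear transcripts sequenced had a mean GC content of 49.86%, 49.61% and 49.84% in vorinostat 6, 7 and 9, and of 50.4% to 50.83% in the 6 libraries under 5%. Their mean length was 4727, 4708 and 4745 bases against 4991 to 5054 bases. Neither measure overlapped between the sets. A mean length in the range of the 3 also occurred at a share under 5%: transgenic vehicle 5 had 4708 bases at a share of 3.91% and wildtype vehicle 5 had 4739 bases at 3.68%, with GC contents of 51.11% and 51.39%, above those of the 3. The part of transcript GC content and length in the differences between the sets was not tested, and values after a per-library correction for both are given beside the main gene groups below.

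Nuclear genes of oxidative phosphorylation were higher with few exceptions. Of 37 tested subunits and assembly partners of complex I, 33 were higher and 0 lower, with a median difference of 0.49 beside 0.02 for all genes. The mean log2 CPM of the list was 5.98, 6.06 and 5.96 in the 3 libraries and 5.53 to 5.6 in the 6. Ndufb3 was at 52.2, 54.8 and 49.7 CPM against 30.8, 32.7 and 33.6 CPM, and Ndufa5 at 85.1, 98.6 and 73.9 CPM against 47.1, 53.8 and 57.7 CPM. Both encode accessory subunits. Ndufs5, another accessory subunit, overlapped, at 0.706 to 1.03 CPM against 0.783 to 1.15 CPM.

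Complexes II to V followed the same pattern, with 36 of 42 members higher, 1 lower and a median of 0.50. Usmg5, a subunit of ATP synthase, was at 28.7, 40.4 and 30.5 CPM against 18.5, 19.5 and 19.7 CPM, and Atp5l, another, at 6.02, 6.02 and 6.04 CPM against 2.72, 3.73 and 4.30 CPM. Atp5b, the catalytic beta subunit and the most abundant member, was at 1223, 1209 and 1185 CPM against 1098, 1115 and 1137 CPM, a difference of 0.11. Uqcrc1, a core protein of complex III, was the lower member, at 217, 205 and 206 CPM against 233 to 240 CPM. Cyc1, of the same complex, overlapped. After the correction for transcript GC content and length, which was added after seeing the data, the medians were 0.21 for complex I (26 of 37 higher) and 0.28 for complexes II to V (26 of 42 higher), beside 10.7% of all nuclear genes called higher.

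Other mitochondrial gene groups were mixed. Proteins of the mitochondrial ribosome were higher in 53 of 77 and lower in 1 (median 0.31), with Mrpl32 at 18.1, 20.4 and 18.6 CPM against 9.93, 10.7 and 13.3 CPM, and Mrpl38 the lower member, at -0.19. After the correction 24 were higher and 4 lower (median 0.11). Import components were higher in 8 of 19 and lower in 0 (median 0.21), and after the correction in 7 and 2 (median 0.13). Tomm7, a small subunit of the outer membrane translocase, was at 63.0, 66.6 and 62.9 CPM against 36.5, 38.8 and 39.4 CPM, whereas Tomm20, a receptor of the same translocase and the most abundant member, overlapped. Of 20 genes that express mitochondrial DNA, 9 were higher and 3 lower. Slirp, an RNA-binding protein that stabilises mitochondrial messenger RNA, was at 18.2, 20.98 and 18.3 CPM against 11.8, 12.7 and 13.9 CPM. Its partner Lrpprc overlapped, at 101, 101 and 92.4 CPM against 90.0, 97.3 and 100 CPM. Polrmt, the mitochondrial RNA polymerase, was lower, at 24.97, 21.4 and 25.6 CPM against 33.0, 37.2 and 40.9 CPM, and so was Polg, the mitochondrial DNA polymerase, at -0.47. After the correction 3 of these 20 were higher and 1 lower, with a median of 0.04.

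Enzymes of the tricarboxylic acid cycle were higher in 10 of 18 and lower in 3 (median 0.17), and after the correction in 4 and 3 (median 0.04). Sucla2 was at 193, 216 and 193 CPM against 133, 143 and 153 CPM, while Ogdh was at 219, 205 and 208 CPM against 308, 311 and 319 CPM. Of 16 glycolytic enzymes, 4 were higher and 8 lower (median -0.17), and after the correction 1 and 5 (median -0.03). Hk1, the main hexokinase of brain, was at 326, 285 and 329 CPM against 455, 464 and 482 CPM, and Aldoa, the most abundant, differed by -0.10. Ldhb was higher by 0.27. Among 15 genes of mitochondrial biogenesis and dynamics, 5 were higher and 4 lower, with Fis1, of fission, higher by 0.53, and the coactivators Pprc1 and Ppargc1b lower, both at -0.74.

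Genes of protein synthesis and degradation were higher as well. Of 79 cytosolic ribosomal proteins tested, 59 were higher and 0 lower, with a median of 0.51, and 41 stayed higher after the correction, with a median of 0.27. The list's mean log2 CPM was 4.02, 4.07 and 4.01 in the 3 libraries and 3.50 to 3.60 in the 6. Rpl4, the most abundant member, was at 515, 547 and 565 CPM against 344, 364 and 376 CPM. Many of these genes have processed copies elsewhere in the genome, and a member such as Rps2, at 1.41 to 2.36 CPM in the 3 libraries, had far fewer counts than Rpl4, so single members are uncertain. Of 37 proteasome subunits, 33 were higher and 1 lower (median 0.39), and after the correction 22 and 1 (median 0.17). Psmc6, an ATPase of the regulatory particle, was at 97.4, 107 and 96.9 CPM against 60.6, 64.4 and 70.1 CPM, and Psmd3 was the lower member, at -0.32. Of 20 antioxidant genes, 12 were higher and 1 lower (Txnrd1, -0.26), with a median of 0.32. After the correction 9 were higher and 2 lower (median 0.12). Prdx1 was higher by 0.58 before it, and Sod2, the superoxide dismutase of the mitochondrial matrix, overlapped.

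Synaptic genes ran the other way. Of 21 glutamate receptors and postsynaptic scaffolds, 13 were lower and 0 higher, with a median of -0.42. Grin1, the obligatory subunit of NMDA receptors, was at 234, 228 and 222 CPM against 406, 454 and 494 CPM, and Nlgn2, an adhesion protein of inhibitory synapses, at 192, 171 and 195 CPM against 318, 329 and 346 CPM. The 3 libraries held values far below the lowest of the 6 for both. Camk2a, the most abundant member, overlapped at 3087, 3580 and 3944 CPM against 3537 to 4508 CPM, and Gria2, an AMPA receptor subunit, was at 1087, 1366 and 1182 CPM against 892 to 1135 CPM, a difference of 0.23. Of 18 genes of transmitter release, 12 were lower and 0 higher (median -0.32), among them Unc13a, a vesicle priming factor, at 282, 271 and 299 CPM against 498, 527 and 555 CPM. Snap25, the most abundant, overlapped, with a difference of 0.12. After the correction, the medians were -0.07 for glutamate receptors and scaffolds (4 of 21 lower) and -0.19 for transmitter release (12 of 18 lower), beside 10.8% of all nuclear genes called lower.

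Immediate early genes, which neurons transcribe within minutes of activity, were lower in 8 of 26 and higher in 0, with a median of -0.59. After the correction 4 were lower and the median was -0.31. Fosl2 was at 48.9, 47.7 and 51.5 CPM against 78.0, 87.9 and 110 CPM, and Fosb at 3.39, 4.14 and 3.30 CPM against 4.65, 6.45 and 7.97 CPM. Arc, the most abundant of them, overlapped, at 76.4, 137 and 78.0 CPM against 77.5, 144 and 341 CPM. Bdnf, a neurotrophin, overlapped as well, at 18.8, 23.4 and 21.9 CPM against 16.0, 17.7 and 20.5 CPM.

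Enzymes that modify histones, the substrate of the deacetylases that vorinostat inhibits, were described next. Of 11 histone H3K4 methyltransferase genes, 8 were lower and 1 higher, with a median of -0.36, and after the correction 6 were lower and 0 higher, with a median of -0.14. Kmt2d was at 116, 115 and 127 CPM against 223, 244 and 264 CPM, Kmt2b at 49.8, 43.8 and 48.4 CPM against 88.9, 96.5 and 107 CPM, and Kmt2a at 189, 190 and 196 CPM against 329, 337 and 348 CPM. The higher member was Dpy30, a small core subunit of these complexes, at 20.1, 20.9 and 20.99 CPM against 12.6, 14.4 and 15.7 CPM. Of 12 histone acetyltransferases, 8 were lower and 1 higher (median -0.34), and after the correction 4 and 1 (median -0.08), with Ep300 at 75.1, 73.2 and 77.4 CPM against 115, 118 and 126 CPM, and Hat1 the higher member, at 0.44. Class IIa deacetylases Hdac4, Hdac5 and Hdac7 were lower, by -0.52, -0.36 and -0.72, and Hdac9 overlapped, but the median of these 4 genes turned from -0.44 to 0.11 after the correction. Among the zinc-dependent deacetylases of the other classes, Hdac2 was at 99.1, 105.1 and 102 CPM against 72.4, 76.9 and 83.0 CPM and Hdac6 at 56.1, 46.9 and 53.0 CPM against 65.2, 73.8 and 83.4 CPM, and the 7 genes had a median of -0.03 (0.03 with library totals without TMM and 0.08 with nuclear counts as totals). Of 13 genes that respond to deacetylase inhibitors in cultured cells, 3 were higher and 1 lower (median 0.11, and -0.04 after the correction), with Mt2, a metallothionein, higher by 0.82 and Cdkn1a, a cell cycle inhibitor, overlapping at -0.33.

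Genes of RNA processing were higher in 18 of 28 and lower in 5 (median 0.29), and after the correction in 4 and 2. Clk1, a kinase of splicing factors, was at 199, 233 and 205 CPM against 125, 138 and 156 CPM, and Luc7l3 at 282, 286 and 292 CPM against 179, 212 and 216 CPM, whereas Srrm2, a scaffold of nuclear speckles, was at 765, 589 and 674 CPM against 1158, 1225 and 1383 CPM. The median of this list was 0.00 after the correction. Of 361 Zfp zinc finger genes, 133 were higher and 61 lower (median 0.20, and 0.05 after the correction). Long noncoding RNAs were split, with Gas5 at 153, 162 and 167 CPM against 87.8, 90.2 and 104 CPM, and Meg3 at 6893, 6319 and 6106 CPM against 6908, 8108 and 8522 CPM. Replication-dependent histones, whose main transcripts lack a polyA tail, were higher in 4 of 13 and lower in 0, and after the correction in 1 and 0.

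Stress lists held genes in both directions. Heat shock genes were higher in 5 of 16 and lower in 2, the unfolded protein response in 10 of 24 and 4, hypoxia genes in 5 of 14 and 2, and apoptosis genes in 5 of 14 and 2. Their medians lay between 0.03 and 0.11. After the correction, heat shock genes were higher in 3 and lower in 1, the unfolded protein response in 0 and 3, hypoxia genes in 2 and 2, and apoptosis genes in 2 and 0. Hspe1, the mitochondrial co-chaperonin, was at 23.4, 26.7 and 26.3 CPM against 15.5, 16.6 and 18.9 CPM, and Hsp90ab1, the most abundant heat shock gene, differed by -0.25. Hyou1, a chaperone of the endoplasmic reticulum, was lower, at -0.64, and Hsp90b1, another, higher, at 0.39. Interferon-stimulated genes were higher in 0 of 14 and lower in 2 (Stat2 and Irf9).

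**Figure D4:**
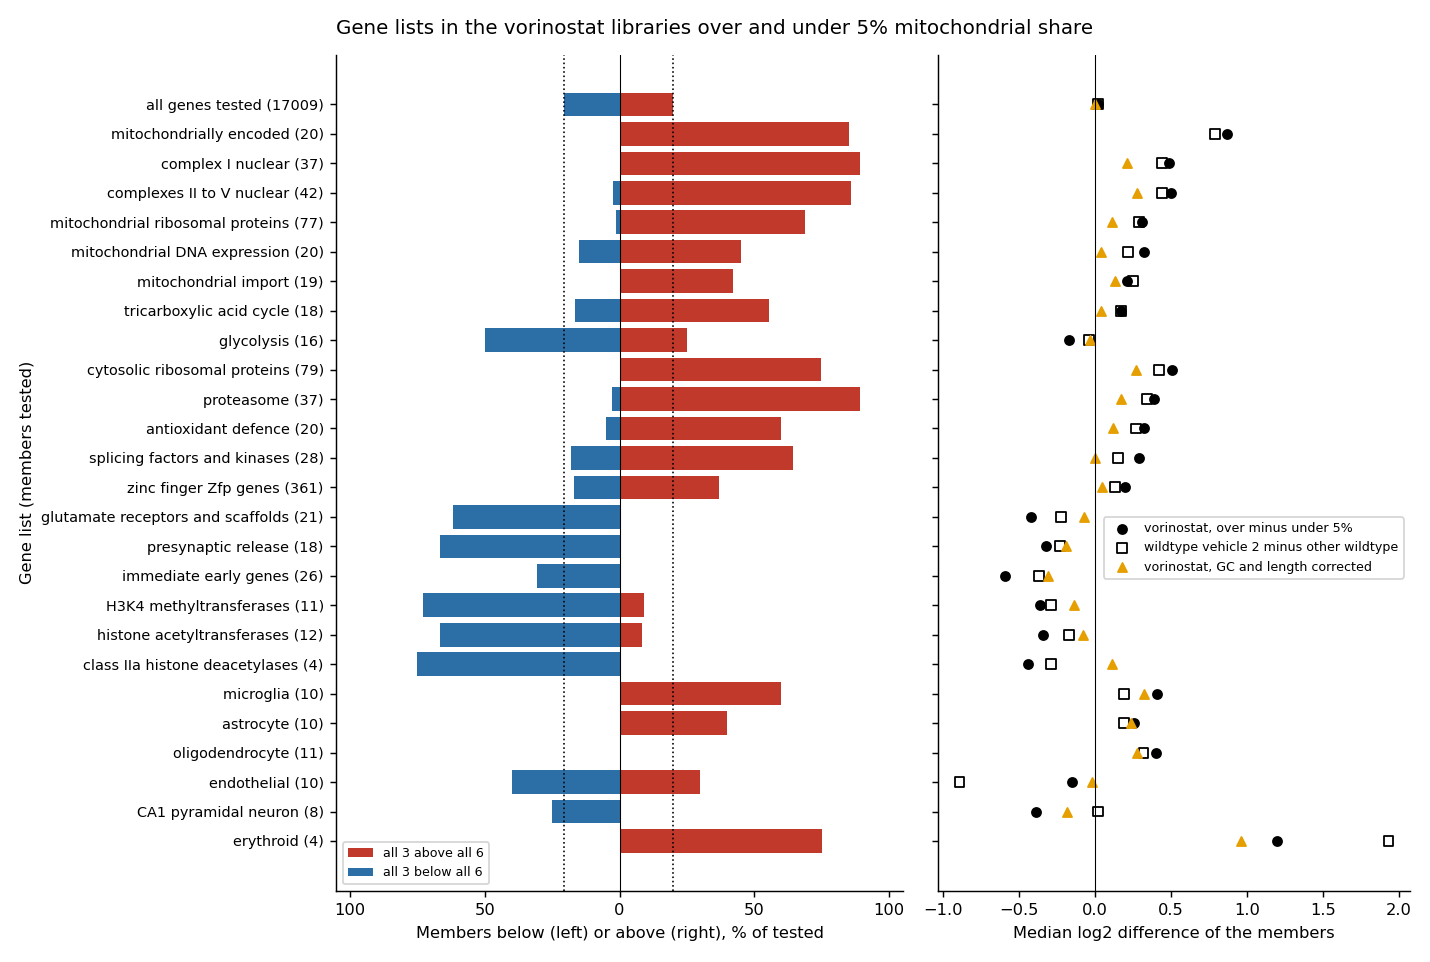
Bars (left) give the percentage of tested members of each list that lay above (red) or below (blue) in all 3 vorinostat libraries over 5%, with dotted lines at the shares for all 17009 genes (19.9% and 20.5%); symbols (right) give the median log2 difference in the vorinostat libraries, after correction for transcript GC and length, and in wildtype vehicle 2 against the other wildtype libraries. Respiratory chain, ribosomal and proteasome genes lie to the right and synaptic and chromatin genes to the left, and nearly all corrected medians are nearer to 0.

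Markers of other cell types moved with the share in part. Microglial markers were higher in 6 of 10 (7 after the correction) and lower in 0, with a median of 0.41 (0.32 after it) and a summed level of 405 to 467 CPM in the 3 libraries and 326 to 401 CPM in the 6. Their list mean was 5.03, 5.17 and 5.23 log2 CPM in vorinostat 6, 7 and 9, and 4.73 to 5.09 in transgenic vehicle. P2ry12, the purinergic receptor of resting microglia, was at 43.8, 55.1 and 55.8 CPM against 25.8, 31.5 and 32.8 CPM, while Csf1r, the most abundant marker, overlapped. Astrocyte markers were higher in 4 of 10 (5 after the correction) and lower in 0, and their summed levels overlapped (6172 to 7743 CPM and 6039 to 6659 CPM). The 11 oligodendrocyte markers all overlapped, with a median of 0.40; vorinostat 9 had a list mean of 7.29 log2 CPM, within the 7.19 to 7.80 of the 6, and the sums were 4482 to 7810 CPM and 4347 to 6517 CPM. Endothelial markers were divided, with Slco1a4 and Itm2a higher by 0.67 and 0.48, Kdr at -0.99 and Cdh5 at -0.98; 3 of 10 were higher and 4 lower, and after the correction 1 and 3. Markers of CA1 neurons were lower in 2 of 8 (25%, beside 20.5% of all genes) and higher in 0, with a median of -0.39. After the correction 1 of the 8 was lower and the median was -0.18. The sum of dentate granule markers was 46.4 to 115 CPM in the 3 against 68.2 to 104 CPM. Erythroid markers summed to 77.4 to 135 CPM and 36.7 to 57.1 CPM, and no marker gene was at 0 in all 28 libraries. The part of cell type composition and blood content in the differences was not tested.

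Inhibitory neuron markers were divided. They were higher in 3 of 11 and lower in 3 (3 and 1 after the correction), with Pvalb higher by 0.67 and Reln lower by -0.80. Markers of CA2 neurons were higher in 1 of 7 and those of CA3 and thalamic neurons were higher or lower in 0. Choroid plexus, fibroblast, ependymal, pericyte, oligodendrocyte precursor, striatal and cortical lists had at most 2 members in either direction. Ttr, the main transcript of choroid plexus, was at 61.9 CPM in vorinostat 6 and at 10.8 and 9.47 CPM in the other 2, within the 1.66 to 91.2 CPM of the 6 libraries.

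One library outside the vorinostat group also exceeded 5%. Wildtype vehicle 2, from a littermate that had neither transgene nor drug, had a share of 6.41%, and the other 9 wildtype vehicle libraries had 2.84% to 4.11%. It lay above all 9 for 4080 of 17009 genes (24.0%) and below all 9 for 3768 (22.2%). It is a single library, so no test was made, and no wildtype library took part in choosing the genes above.

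The genes that separated the vorinostat libraries separated wildtype vehicle 2 in the same direction in most cases. Of the 3373 nuclear genes higher in the vorinostat libraries over 5%, 2487 (73.7%) were above all 9 wildtype libraries and 15 below, and of the 3490 lower genes, 2461 (70.5%) were below all 9 and 8 above. Seen from the other side, 61.2% of the genes high in wildtype vehicle 2 were higher in the vorinostat libraries and 65.3% of those low were lower. Among the 10126 nuclear genes that overlapped in the vorinostat group, 15.5% were above and 12.8% below all 9. Across genes, the differences in the vorinostat and wildtype libraries had a Pearson correlation of 0.68, as a description over 16941 genes.

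Single genes followed. Hbb-bs was at 59.6 CPM in wildtype vehicle 2 against 12.7 to 20.3 CPM, Celsr2 at 217 CPM against 382 to 448 CPM, Bsn at 247 CPM against 463 to 585 CPM and Grin1 at 316 CPM against 410 to 486 CPM. Ndufb3 was at 47.2 CPM against 31.7 to 37.6 CPM. Rpl35a went the other way, at 5.75 CPM within 4.40 to 25.6 CPM, a range in which this gene varied widely among the wildtype libraries. Of the lists, complex I had 31 of 37 members above all 9 and 0 below, and the H3K4 methyltransferases 6 of 11 below and 1 above. Endothelial markers had 7 of 10 below all 9 and 1 above, with a median of -0.89 (-0.15 in the vorinostat libraries), and their sum was 167 CPM against 232 to 302 CPM. The CA1 markers had 0 of 8 outside the range (median 0.02). Microglial markers had 2 of 10 above all 9 and 0 below (median 0.19), and their list mean of 5.04 log2 CPM lay within 4.64 to 5.07. Glycolytic enzymes had a median of -0.04.

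**Figure D5:**
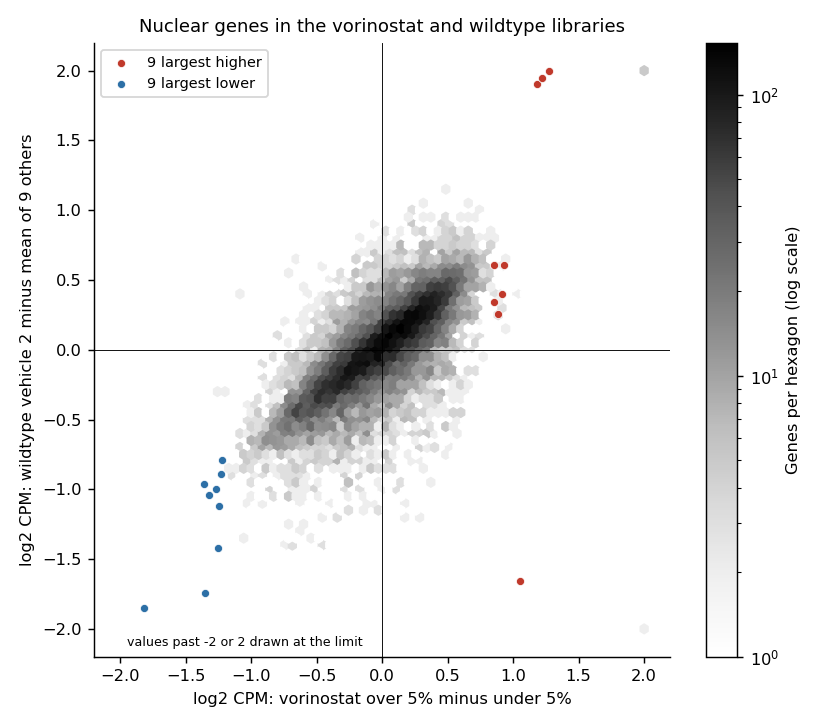
Each hexagon counts nuclear genes (log scale) by the log2 CPM difference of the 3 vorinostat libraries over 5% from the 6 under it (x axis) and of wildtype vehicle 2 from the mean of the other 9 wildtype libraries (y axis); red and blue points are the 9 nuclear genes of largest difference each way by the naming rule. The cloud runs along the diagonal (Pearson correlation 0.68), and Rpl35a is the red point below 0.

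Whether gene levels moved with the mitochondrial share within its usual range was tested in the 18 vehicle libraries under 5%, which no vorinostat library entered. Their shares ran from 2.84% to 4.11% (SD 0.322), a far narrower range than that of the vorinostat group. The quasi-likelihood test of edgeR, with group and share as terms and p-values adjusted by Benjamini and Hochberg over all genes, called 1 of 16989 nuclear genes (0.00589%). It was Gm28438, with a slope of 0.79 log2 units per percentage point (SE 0.122, adjusted p = 0.00465). Gm28438 is a pseudogene on chromosome 1 (24612775 to 24613119, GRCm38) in which 99.1% of words of 25 bases also occur in the mitochondrial transcript mt-Nd3, so reads cannot be assigned between the genomes with certainty. The call was lost without wildtype vehicle 6, the library of lowest share (edgeR adjusted p = 0.493), and held with each other vehicle library left out (0.00165 to 0.022). Unadjusted p-values were under 0.05 for 1365 nuclear genes (8.03%), and DESeq2 called 12 genes.

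Of the mitochondrially encoded genes themselves, 8 of 20 were called, with slopes such as 0.41 for mt-Cytb (SE 0.0501, edgeR adjusted p = 0.000379). This is built into the measure, since these genes sum to the share. mt-Nd5 had a slope of 0.38 (SE 0.0818) and was not called (edgeR adjusted p = 0.183). The nuclear genes with the next smallest p-values after Gm28438 were Pde3a, Eid1, Arvcf and Sh3bgrl, with edgeR adjusted p = 0.123, 0.139, 0.139 and 0.183. Of these, Eid1, Arvcf and Sh3bgrl also did not overlap in the vorinostat libraries, in the direction of their slopes: Sh3bgrl, for example, was at 99.9, 124 and 111 CPM against 61.4 to 96.8 CPM.

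Without a call for single genes, the signs of the slopes are given as a description. Of the 3373 nuclear genes higher in the vorinostat libraries over 5%, 69.6% had a positive slope in the vehicle libraries, and of the 3490 lower genes 67% had a negative one, beside 51.7% positive among all nuclear genes. Gene lists did not all follow. Slopes were positive for 19 of 37 complex I genes, 19 of 42 of complexes II to V, 18 of 37 of the proteasome and 59 of 79 cytosolic ribosomal proteins. Among lists with lower medians, they were positive for 16 of 21 glutamate receptors and scaffolds and 18 of 26 immediate early genes. For transmitter release it was 8 of 18, and for H3K4 methyltransferases 4 of 11. The slopes had a Spearman rho of -0.30 with transcript GC content and 0.01 with length across genes. Over the 18 libraries, the share was not related to library measures past the threshold. Its Pearson r was -0.21 with mean transcript GC content (permutation p = 0.387, Spearman rho -0.36, permutation p = 0.146), 0.17 with hemoglobin (permutation p = 0.503, rho 0, p = 0.994), -0.10 with the total count (permutation p = 0.642, rho -0.31, p = 0.205) and 0 with mean transcript length (permutation p = 0.989, rho 0.10, p = 0.677). These p-values are from 100000 permutations each, and the adjusted values over the 4 relations were 0.856 or more for r and 0.41 or more for rho. Without wildtype vehicle 6 and transgenic vehicle 7, the libraries farthest from the median share, r was -0.35, -0.42, -0.19 and 0.16, so the sign for hemoglobin rested on those libraries. Within wildtype and within transgenic vehicle libraries (9 each), r with GC content was -0.33 and 0.07. A p above the threshold over this narrow range does not show that the share was unrelated to them.

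The 3 libraries also entered the comparison of vorinostat with transgenic vehicle, which asks what the drug did in the transgenic mice. With all 9 vorinostat libraries, edgeR called 0 of 17009 genes (0%; smallest adjusted p = 0.345), with 2450 genes (14.4%) at an unadjusted p under 0.05, and DESeq2 called 1, Igfbp4 (log2 -0.40, DESeq2 adjusted p = 0.025). Without vorinostat 6, 7 and 9, edgeR again called 0 genes (0%; smallest adjusted p = 1), and genes at an unadjusted p under 0.05 numbered 477 (2.8%). With the mitochondrial share as a covariate and all libraries kept, that number was 631. Leaving out 3 libraries also lowers the number of samples, so the counts are not on equal terms.

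Compared with the 9 transgenic vehicle libraries, the 3 vorinostat libraries over 5% lay above all of them for 2859 genes (16.8%) and below for 2989 (17.6%). The 6 libraries under 5% lay above all 9 for 2 genes (0.0118%) and below all 9 for 3 (0.0176%). Both counts use the same vehicle libraries, and the sets differ in size. The genes of the second count, named after their values were seen, were Csmd1 and Gm21817 above and Ciao1, Pno1 and 1110003F10Rik below. Csmd1, a large membrane protein of neurons, was at 139 to 147 CPM in the 6 libraries against 99.1 to 137.6 CPM in transgenic vehicle, and at 80.5, 80.5 and 86.4 CPM in vorinostat 6, 7 and 9, below the whole vehicle range. Pno1, a factor of ribosome assembly, was at 12.1 to 14.6 CPM in the 6 and at 18.7 to 24.3 CPM in the 3, with vehicle at 14.7 to 16.6 CPM between them. Ciao1, of cytosolic iron-sulfur protein assembly, was at 48.3 to 50.1 CPM in the 6, 57.1 to 61.3 CPM in the 3 and 50.1 to 53.7 CPM in vehicle. For Csmd1, Pno1 and Ciao1 the 3 libraries and the 6 lay on opposite sides of the vehicle libraries, though the 6 only narrowly. Gm21817 and 1110003F10Rik are not described further, and no pattern is read from so few genes.

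The genes with the smallest p in the comparison with vehicle were then followed. Igfbp4, which binds insulin-like growth factors, was at 67.0, 70.9 and 65.5 CPM in vorinostat 6, 7 and 9, at 74.3 to 99.5 CPM in the 6, and at 93.0 to 112.5 CPM in transgenic vehicle. Its log2 fold change was -0.40 with all 9 vorinostat libraries (SE 0.0801, edgeR adjusted p = 0.345) and -0.31 with the 6 (SE 0.0823, edgeR adjusted p = 1). Eva1c was at -0.51 and -0.50, Crb2 at -0.46 and -0.34, and Sypl2 at -0.40 and -0.37 in the same order, with edgeR adjusted p = 0.345 with all 9 and 1 with the 6 for each. For mt-Cytb the estimate was 0.32 (SE 0.151, edgeR adjusted p = 0.345) with all 9 and -0.06 (SE 0.112, edgeR adjusted p = 1) with the 6, and for Hbb-bs 0.89 and 0.36 (edgeR adjusted p = 0.345 and 1). Because mt-Cytb is part of the share, its lower estimate with the 6 was built into the choice of libraries.

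Adjusted expression values were deposited by the authors as well, and fewer genes separated there. Over 18014 genes of the authors' deposited table, the 3 vorinostat libraries lay above the 6 for 2554 genes (14.2%) and below for 1714 (9.51%). Of the genes higher in the counts, 57.5% were also higher in the authors' deposited table, and of those lower 45.3% were lower. The scale of that table is not given in the sources used here. In the authors' deposited table mt-Cytb was at 13.74, 13.79 and 13.5 against 13.03 to 13.37, and mt-Nd5 at 11.54, 11.76 and 11.46 against 11.15 to 11.38. Celsr2 was at 7.57, 7.71 and 8.11 there against 8.32 to 8.55 in the same deposited table, and Hbb-bs overlapped, at 8.08, 7.05 and 7.28 against 6.77 to 7.36.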

How the data were processed

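The authors deposited raw read counts per gene for each of the 28 libraries, for which the submitters' processing notes name mm10, featureCounts, Subread 1.5.1, STAR 2.5.2b and FastQC 0.11.5; annotation release, strand setting and treatment of multi-mapped reads are not given in the sources used here. Per the labels' protocols, libraries came from the TruSeq RNA v2 kit and were read as single ends of 50 bases. Adjusted expression values deposited by the authors were treated as a score with no stated scale, and their module table was not used here. Libraries held 20230085 to 33191857 counts, and of 117 pairs of libraries within a group none was identical. Precision of low counts is limited by this depth.

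Of 48709 gene identifiers, 48349 (99.3%) matched GENCODE M21 on GRCm38, from which names, transcript lengths and GC contents were taken using the longest basic transcript. The filter of edgeR 4.0.16 (minimum count 10, minimum total 15) kept 17009 genes. Levels are CPM on TMM-scaled totals, and differences are of mean log2 CPM with a prior count of 2. Slopes on the share and vorinostat against transgenic vehicle were tested with edgeR's quasi-likelihood test in R 4.3.3, with Benjamini-Hochberg adjustment and a threshold of 0.05; DESeq2 1.42.0 was an alternative. Scripts were tested on simulated data. Other scalings, filters, share thresholds and left-out libraries were also tried, and a correction of each library for transcript GC content and length was added after seeing the data.

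Genes were named by a rule: the 12 largest nuclear differences each way that did not overlap and averaged at least 5 CPM, the most abundant and most different members of each list, and the 5 smallest p in each test; some items are not reported here. The members and gene lists were chosen with earlier results of these data known.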

Additional observations from a re-analysis of the deposited data

Results flagged for a closer look

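In 36 sets of 1 group and 1 library measure, 6 values stood far from the rest of their group by Dixon's gap test, which also flags some groups by chance. Wildtype vehicle 2 had a mitochondrial share of 6.408%, with the next wildtype library at 4.111%. The same library had 101.2 CPM of hemoglobin counts on unadjusted totals, with the next at 32.97 CPM. Wildtype vehicle 5 had 33191857 counts, with the next at 25828256, and 25835 genes with a count, with the next at 24597. Transgenic vehicle 5 had a mean transcript GC content of 51.11%, with the next at 50.84%, and a mean transcript length of 4708 bases, with the next at 4918.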

How the results depend on the processing

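The genes higher and lower in the vorinostat libraries over 5% numbered 3390 and 3490, and 3506 to 4132 and 3588 to 4119 with 1 library left out. Leaving a library out could only keep or raise these counts, since fewer libraries then had to separate. Thresholds of 4.5% and 6% gave the same split of libraries. Library totals without TMM gave 4228 higher and 2860 lower, nuclear totals 4915 and 2453, and DESeq2 size factors 3239 and 3626. Correction for transcript GC content and length gave 1808 and 1833, and the cause was not tested. Of the genes higher and lower before it, 33.2% and 34.7% kept their call and 39 and 182 turned.

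In the vehicle fit, which called 1 gene, DESeq2 called 12, all 19 vehicle libraries (wildtype vehicle 2 included) 2535, transgenic libraries alone 31 and wildtype libraries alone 0. Leaving out 1 library gave 0 to 6 calls: 0 without wildtype vehicle 6, 6 without wildtype vehicle 1 and 2 without wildtype vehicle 10. With the replicate number as a block it called 0 (985 at an unadjusted p under 0.05), and vorinostat against transgenic vehicle also 0 (2748), beside 1 by DESeq2. Most same-numbered libraries did not deviate together: 7 of 27 pairs had r over 0.1, from -0.34 to 0.41 (wildtype and transgenic vehicle 5). The numbers were not taken as pairing. They come from the sample titles and do not match the authors' sample codes across groups. Neither this check nor the block can therefore decide on a pairing by those codes.

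Of 880 list medians under an alternative, 40 changed sign: 27 by less than the SD of the list mean between libraries, mostly in neuron marker lists, and 13 by at least that. With library totals without TMM and with nuclear totals, class I, IIb and IV deacetylases were at 0.03 and 0.08. With nuclear totals, inhibitory neuron markers were at 0.073 and oligodendrocyte precursor markers at 0.007. With a mean of at least 5 CPM, interferon-stimulated genes were at -0.061, apoptosis at -0.056 and ependymal markers at -0.491. With 1 library left out, apoptosis ran from -0.001 (without vorinostat 9) to 0.066 and ependymal markers from -0.638 (without vorinostat 9) to 0.511. After the correction, class IIa deacetylases were at 0.107, deacetylase inhibitor response genes at -0.044, cortical markers at 0.053 and oligodendrocyte precursor markers at 0.233. The cause was not tested. No named gene among 26 reversed, but the difference of each nuclear one was smaller after the correction. Celsr2 went from -1.36 to -0.50, Bsn from -1.25 to -0.39 and Hba-a1 from 1.27 to 1.07. Baiap3 (-0.69), Vwf (-0.45) and Tnxb (-0.33) then overlapped, and the other nuclear ones kept their call.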
